A study of Mus musculus with 38 samples.

Results

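The reads assigned to messenger RNA, long non-coding RNA and other named biotypes were followed in the small RNA of mouse sperm, as 17 of the 29 class rows that hold reads matching the genome. These were all rows of the Ensembl (9 rows) and Rfam (8 rows) annotations apart from those for rRNA, snoRNA, snRNA, miRNA and the mitochondrial tRNA and rRNA, and the choice used no measured value. Sperm came from 38 C57BL6/J males killed at 11 to 13 weeks of age, 10 of the CTCT group, 9 of CTPR, 9 of PRCT and 10 of PRPR. A group name joins 2 diets, that of the mother until pups were weaned (day 21) and that fed to the son from then on, where CT stands for control food of 20% protein and PR for restricted food of 8%. The comparisons ask whether protein restriction before weaning, after it, or at both times altered the RNA that sperm carry. The mice came from 21 litters, of which 8 gave both a CTCT and a CTPR male and 9 both a PRCT and a PRPR male. All numbers are read counts divided by the reads of that library that matched the genome, between 4465281 and 7612603 per mouse (median 6342719).

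Sperm lose most of their cytoplasm as they mature, and the long transcripts that remain are mainly found as fragments. A small RNA library, here with inserts of 13 to 73 bases, therefore samples pieces of messenger RNA (mRNA) and long non-coding RNA beside the small RNAs that sperm are known for, the tRNA fragments, piRNA and miRNA. A class row counts pieces from all genes of a biotype together, and neither the gene nor the sequence of a piece is listed for these rows. Ensembl separates long non-coding genes by their place. A lincRNA gene lies between coding genes, an antisense gene overlaps a coding gene on the opposite strand, a sense intronic gene lies within an intron, a sense overlapping gene spans a coding gene, and a bidirectional promoter lncRNA starts beside the promoter of a coding gene and runs away from it. The processed transcript biotype holds genes without an open reading frame that fit none of these. The Rfam rows carry the names mRNA, DNA, mt_DNA, gene_region, other, other_RNA, scRNA and pseudogene, and the rule by which reads entered them is not given in the sources used here. In sperm of whole animals, fewer cells of a kind and less RNA per cell cannot be told apart.

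The library of CTCT mouse 35F2 stood apart and is named before any result. Its class rows, with the row of tRNA reads ending in CCA, added up to 614630 reads more than its genome-matching total, and its unmatched rows differed from the unmatched total by -644561 reads. Rows and genome-matching total agreed to within 52 reads in 34 of the 38 mice. It held 46218 reads of the bidirectional promoter class, 583 times the median percentage of all mice, 31017 of the sense overlapping class (1542 times) and 306251 of misc_RNA (29.8 times). The remaining 3 mice were PRPR mouse 08G5, whose rows differed from its total by -1241147 reads, PRCT mouse 31A3 (-117839 reads) and CTCT mouse 47I1, where the gap of 789615 reads lay in the row of tRNA reads ending in CCA. In CTCT mouse 07C3 only the unmatched rows were short (-73612 reads). Results that rest on mouse 35F2 are given with it and without it.

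Rfam DNA was the most abundant of the 17 classes, with a median over the 38 mice of 11.1% of genome-matching reads. It was followed by Ensembl processed transcript (6.99%), lincRNA (3.49%), Rfam mRNA (0.949%), Rfam other (0.531%), antisense (0.235%) and misc_RNA (0.153%). The other 10 classes had medians under 0.1%. Among these, mt_DNA reached 0.0296%, scaRNA, whose members guide the modification of spliceosomal RNA in Cajal bodies, 0.0138%, and sense intronic RNA 0.00599%. Ribozyme, the biotype of the RNA parts of RNase P and RNase MRP, had a median of 0.00138%, bidirectional promoter lncRNA of 0.00118%, and sense overlapping RNA of 0.0003%. Rfam gene_region was at 0 in 8 mice and had a median of 23 reads, Rfam other_RNA had a median of 2 reads, and Rfam scRNA and Rfam pseudogene were each 1 read in 1 mouse. In all, 13 classes were read in every mouse and 14 had a median of at least 10 reads.

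**Figure D1:**
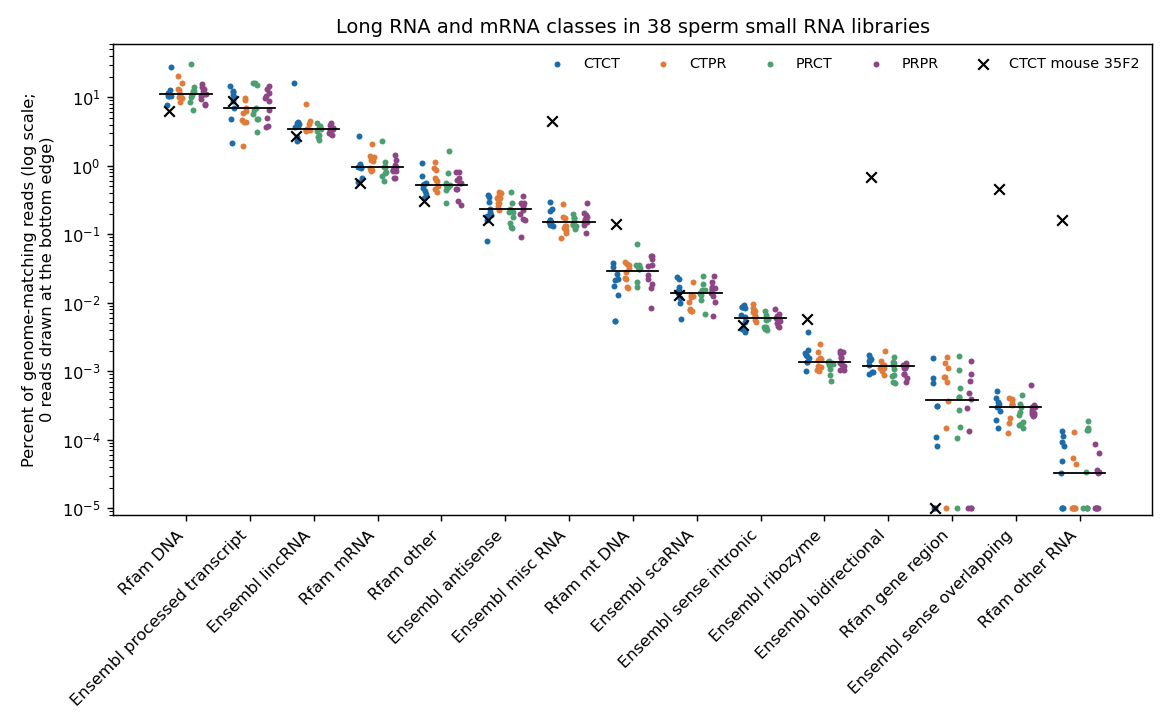
Percent of genome-matching reads (log scale) of the 15 classes with reads in more than 1 mouse, for each of the 38 mice, coloured by diet group, with the median of all mice as a bar and CTCT mouse 35F2 as a cross. Levels span from a median of 11.1% for Rfam DNA to a median of 2 reads for Rfam other_RNA, and mouse 35F2 lies far above the other mice in misc_RNA, mt_DNA, bidirectional, sense overlapping and other_RNA.

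Per length of annotation the order was different. Divided by the exonic length of the biotype in the GENCODE M21 annotation, processed transcript stood first with a median of 33.8 RPM (reads scaled to 1000000 genome-matching reads) per kilobase, from 790 genes. It was followed by scaRNA (18.3 RPM per kilobase from 51 genes) and misc_RNA (11.6 RPM per kilobase from 562 genes). The lincRNA biotype, with 5854 genes, gave 4.00 RPM per kilobase, ribozyme 2.28 and antisense 0.542. The 3 remaining long classes were lower still, at 0.122 RPM per kilobase for sense intronic, 0.0614 for sense overlapping and 0.0362 for bidirectional promoter lncRNA. The processed transcript biotype was thus densely read for its length, and it is also a biotype whose genes hold many snoRNA genes in their introns. Of 1507 annotated snoRNA genes, 275 (18.2%) lay inside 24 processed transcript genes. In the 5854 lincRNA genes lay 37, and in the 21951 protein-coding genes 350. Only 46 of the 275 lay wholly within an exon of the host gene.

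The classes also differed in how many of their reads matched the genome at all. Of the reads assigned to Rfam mRNA, a median of 17.8% matched (range 6.30% to 47.3%), with up to 1565622 unmatched reads in CTCT mouse 02A6. For Rfam DNA the share was 70.9% (56.6% to 83.1%), for Rfam mt_DNA 80.7% and for Rfam other 86.2%. The Ensembl long RNA rows had higher matched shares, with medians of 99.8% for antisense, 99.97% for lincRNA and 99.98% for processed transcript, where mouse 35F2, at 79.7%, was the lowest. For the rare classes the median was 100%, with a lowest value of 75% for sense overlapping RNA (PRCT mouse 31A3) and of 93.3% for bidirectional promoter lncRNA (CTCT mouse 07C3). The genome-matching reads analysed here are therefore a minor part of all reads given the name mRNA, and nearly all of those given the name of an Ensembl long biotype.

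Together, the 17 classes made up 26.5% ± 6.27 (SD, n = 38) of genome-matching reads. In the CTCT group their sum ranged from 24.03% to 49.9% (median 25.9%), in CTPR from 15.6% to 36.7% (median 23.99%), in PRCT from 19.8% to 43.8% (median 25.3%) and in PRPR from 21.7% to 30.5% (median 25.1%). The groups overlapped over most of their range, and the high values were those of CTCT mouse 02A6, PRCT mouse 08G3 and CTPR mouse 02A8, the littermate of 02A6. The difference in means of CTPR from CTCT was -3.596 percentage points (24.9% ± 6.40, n = 9, against 28.5% ± 7.72, n = 10). A two-sided exact permutation test gave P = 0.320, or 0.640 when adjusted for the 4 comparisons. Against the same CTCT mice the difference was -1.34 points in PRCT (exact permutation P = 0.670, adjusted P = 0.670) and -2.99 points in PRPR (P = 0.307 from 100000 permutations, adjusted P = 0.640). Between PRPR and PRCT the difference was -1.65 points (exact permutation P = 0.581, adjusted P = 0.670). None of these differences exceeded the spread between mice, and without mouse 35F2 the adjusted P values were 0.574, 0.606, 0.574 and 0.606 (exact permutation tests). Without litter 02A the PRCT mean was 1.04 points above that of CTCT instead of below it (exact permutation P = 0.762). Between littermates the CTPR male was higher in 3 of 8 litters (mean difference -3.22 points, SD 6.30, exact sign-flip P = 0.211) and the PRPR male in 5 of 9 (mean difference -1.28 points, SD 7.09, exact sign-flip P = 0.730). The lowest PRPR difference, -18.2 points, was that of litter 08G. Its PRPR male is mouse 08G5, whose rows differed from its total by -1241147 reads, so its percentage is uncertain.

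**Figure D2:**
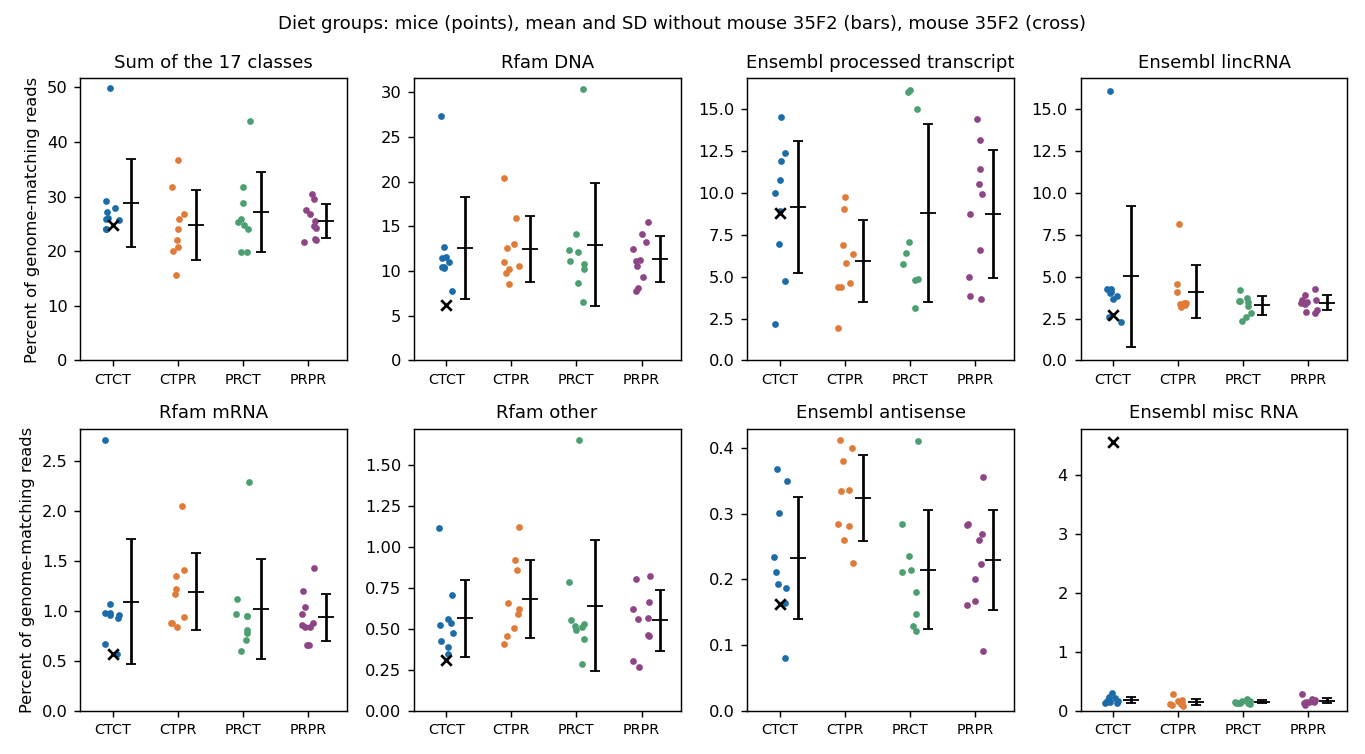
Percent of genome-matching reads by diet group for the sum of the 17 classes and the 7 most abundant ones. Points are mice, bars are the mean and SD without mouse 35F2, and the cross is mouse 35F2. CTPR lies low in processed transcript and high in antisense, and the high points of the sum, Rfam DNA, lincRNA and Rfam mRNA are mice 02A6, 02A8 and 08G3.

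Each class was then tested between the diet groups with edgeR's quasi-likelihood test on the counts of all 29 class rows, with Benjamini-Hochberg adjustment over them. With all mice in the fit, 4 of the 17 classes were lower in CTPR than in CTCT at an adjusted P under 0.05, where 17.2% of all class rows were called, all of them lower. In PRCT 5 classes were lower (20.7% of all rows) and in PRPR 4 (17.2%). The same 4 also passed the test of the interaction of the diets before and after weaning (17.2%). These were misc_RNA, bidirectional promoter lncRNA, sense overlapping RNA and Rfam other_RNA, joined in PRCT by ribozyme. Between PRPR and PRCT 0 classes were called (0% of all rows), and 0 had an unadjusted P under 0.05. Without mouse 35F2 edgeR called 0 of the 17 classes in any of the 5 comparisons (0% of all rows). At an unadjusted P under 0.05 there were then 0 classes in CTPR, 4 in PRCT, 1 in PRPR, 0 between PRPR and PRCT and 1 for the interaction. DESeq2 with all mice called 1 class, ribozyme in PRCT, with 2, 2, 1, 0 and 1 classes at an unadjusted P under 0.05. It called 3.45% of all rows in PRCT and 0% in each other comparison. In PRCT, PRPR and the interaction, however, it gave no P value for misc_RNA, bidirectional promoter lncRNA, sense overlapping RNA and Rfam other_RNA. Its counts with all mice thus hold no test of these 4 classes there, and the shares of all rows include them. Whether it gave a P value for them in CTPR, or between PRPR and PRCT, is not shown by the values kept. Its 0 calls in those comparisons therefore decide nothing about these 4 classes. Without mouse 35F2 DESeq2 called 0 of the 17, with 0, 3, 1, 0 and 0 classes at an unadjusted P under 0.05, while 1 other row, Rfam snoRNA, passed in CTPR (3.45% of all rows). A fit of CTPR against CTCT that compared littermates also called 0 of 16 classes (0% of 28 rows), with 1 at an unadjusted P under 0.05.

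The 4 classes called against CTCT with all mice depended on 1 library. The bidirectional promoter class had between 42 and 115 reads in the 37 other mice. Its log2 fold change in CTPR was -5.82 ± 1.15 (SE; edgeR, adjusted P = 0.000117) with mouse 35F2 and -0.09 ± 0.18 (adjusted P = 0.808) without it. Sense overlapping RNA had between 8 and 39 reads in the other mice, and its log2 fold change went from -7.28 ± 1.40 (edgeR, adjusted P = 0.000117) to -0.08 ± 0.25 (adjusted P = 0.887). For Rfam other_RNA, with at most 11 reads in the other mice, it went from -9.18 ± 2.00 (edgeR, adjusted P = 0.000351) to -0.97 ± 0.89 (adjusted P = 0.511). The misc_RNA biotype is a mixed one that includes the Y RNAs, and its share ranged in the other mice from 0.0897% to 0.300%, against 4.57% in mouse 35F2. Its log2 fold change in CTPR went from -2.08 ± 0.53 (edgeR, adjusted P = 0.00215) to -0.31 ± 0.19 (adjusted P = 0.360). In each of the 4 classes the CTCT group without mouse 35F2 overlapped the other groups.

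Ribozyme had the smallest P of the 17 classes in PRCT against CTCT once mouse 35F2 was left out, and it did not pass the adjusted test. In the CTCT group it ranged from 0.00100% to 0.00586% (median 0.00172%) with mouse 35F2 as the highest, in CTPR from 0.00103% to 0.00255% (median 0.00147%), in PRCT from 0.000729% to 0.00139% (median 0.00127%) and in PRPR from 0.00105% to 0.00198% (median 0.00145%). All 9 PRCT mice lay below the CTCT median. Its log2 fold change in PRCT was -0.92 ± 0.27 (edgeR, adjusted P = 0.00771) with all mice and -0.63 ± 0.21 (P = 0.00459, adjusted P = 0.133) without mouse 35F2. The log2 fold change of lincRNA in PRCT without mouse 35F2 was -0.61 ± 0.25 (edgeR, P = 0.0196, adjusted P = 0.214), which was -0.10 when CTCT mouse 02A6 was left out of all mice, and that of Rfam mt_DNA was 0.74 ± 0.33 (edgeR, P = 0.0303, adjusted P = 0.214). With all mice these log2 fold changes were -0.54 ± 0.25 (adjusted P = 0.129) and 0.07 ± 0.42 (edgeR, adjusted P = 1). Between PRPR and PRCT ribozyme again had the smallest P, with a log2 fold change of 0.34 ± 0.26 (edgeR, P = 0.205, adjusted P = 1).

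Processed transcript, the most abundant Ensembl class, was low in CTPR. It ranged from 2.19% to 14.6% in CTCT (median 9.44%), from 1.92% to 9.77% in CTPR (median 5.83%), from 3.16% to 16.1% in PRCT (median 6.43%) and from 3.66% to 14.4% in PRPR (median 9.33%). Of the 9 CTPR mice 1 was above the CTCT median, but the ranges of the groups overlapped. The mean was 5.92% ± 2.45 in CTPR and 9.12% ± 3.71 in CTCT (two-sided exact permutation P = 0.0433, adjusted P = 0.251 over all class rows), and edgeR gave a log2 fold change of -0.62 ± 0.33 (P = 0.0689, adjusted P = 0.166). Without mouse 35F2 these tests gave an exact permutation P of 0.0527 and a log2 fold change of -0.63 ± 0.34 (edgeR, P = 0.0754, adjusted P = 0.318). In PRCT and PRPR the log2 fold changes against CTCT were -0.05 ± 0.33 and -0.06 ± 0.32 (edgeR, adjusted P = 1 and 0.913). Between littermates the CTPR male was lower in 6 of 8 litters (mean difference -2.40 points, SD 3.09, exact sign-flip P = 0.0703, adjusted P = 0.438 over 14 classes), and in 5 of 7 without the litter of mouse 35F2 (-2.15 points, exact sign-flip P = 0.141, adjusted P = 0.613). The difference between CTPR and CTCT therefore did not pass the adjusted test by any of these measures.

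Antisense RNA, in contrast, had its highest median in CTPR. It ranged from 0.0803% to 0.369% in CTCT (median 0.202%), from 0.226% to 0.413% in CTPR (median 0.335%), from 0.122% to 0.411% in PRCT (median 0.212%) and from 0.0915% to 0.357% in PRPR (median 0.241%). All 9 CTPR mice were above the CTCT median, and 7 of 8 CTPR males were above their CTCT littermate. The log2 fold change of CTPR against CTCT was 0.53 ± 0.25 (edgeR, P = 0.0410, adjusted P = 0.119) with all mice and 0.48 ± 0.25 (P = 0.0587, adjusted P = 0.318) without mouse 35F2. With trimmed-mean (TMM) scaling of the libraries instead, it was 0.67 ± 0.23 and passed the adjusted test (edgeR, adjusted P = 0.0297). Of 12 settings with mouse 35F2, by edgeR or DESeq2, this was the only one that passed, with adjusted P up to 0.506. In 4 settings without that mouse the adjusted P lay between 0.316 and 0.494 (edgeR or DESeq2). The mean percentages, 0.324% ± 0.0656 against 0.225% ± 0.0903, gave a two-sided exact permutation P of 0.0163 (adjusted P = 0.217). The littermate difference was 0.0844 points (SD 0.075, exact sign-flip P = 0.0156, adjusted P = 0.219), and 0.0653 points without the litter of mouse 35F2, higher in 6 of 7 (exact sign-flip P = 0.0312, adjusted P = 0.438). In PRCT the log2 fold change was -0.07 ± 0.25 and in PRPR 0.03 ± 0.24 (edgeR, adjusted P = 1 and 0.913), and the interaction of the diets gave 0.43 ± 0.35 (adjusted P = 0.438). The sources used here do not state whether strand was used in assigning reads, so reads of an antisense gene and of the coding gene opposite may not be separated.

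Values of other RNA classes and of marker miRNAs are given beside these differences. The snoRNA and tRNA differences did not pass the adjusted permutation test, and the marker sums were not tested. The mean of Ensembl snoRNA was 15.95% in CTPR and 27.4% in CTCT (two-sided exact permutation P = 0.0299, adjusted P = 0.217), and that of tRNA 15.9% and 9.57% (exact permutation P = 0.0148, adjusted P = 0.217). All 5 listed epithelial miRNAs were detected, and their summed level ranged from 38.9 to 1294 RPM in CTCT (median 525.5), from 34.2 to 2227 RPM in CTPR (median 1044), from 132 to 1043 RPM in PRCT (median 392) and from 96.9 to 1298 RPM in PRPR (median 451). The 3 listed miRNAs of male germ cells had medians of 314 RPM in CTCT, 773 RPM in CTPR, 383 RPM in PRCT and 358 RPM in PRPR, and the 4 of muscle medians of 1503, 2522, 1223 and 1114 RPM. These sums are shares of genome-matching reads and not of miRNA reads. Total miRBase miRNA itself had a log2 fold change against CTCT of 0.78 ± 0.48 in CTPR (edgeR, adjusted P = 0.240), -0.06 in PRCT and -0.05 in PRPR. The 4 blood miRNAs stayed at medians between 6.54 and 8.52 RPM. Their part in the class differences was not tested.

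None of the other abundant classes passed the adjusted test in any comparison with mouse 35F2 left out. Rfam mRNA had a median of 0.961% in CTCT (0.570% to 2.71%), 1.16% in CTPR (0.842% to 2.05%), 0.949% in PRCT (0.597% to 2.30%) and 0.868% in PRPR (0.654% to 1.43%). Rfam DNA had medians of 10.8% in CTCT (6.21% to 27.4%), 11.0% in CTPR (8.55% to 20.4%), 11.2% in PRCT (6.52% to 30.3%) and 11.1% in PRPR (7.76% to 15.5%). The ranges of all groups overlapped for both. Their log2 fold changes against CTCT lay between -0.15 ± 0.24 and 0.20 ± 0.25 for mRNA and between -0.07 ± 0.23 and 0.12 ± 0.23 for DNA (edgeR, adjusted P of at least 0.574). The lincRNA class had medians of 3.94% in CTCT (2.27% to 16.1%), 3.42% in CTPR (3.17% to 8.11%), 3.48% in PRCT (2.34% to 4.19%) and 3.48% in PRPR (2.86% to 4.26%). Its highest mice were the littermates 02A6 and 02A8, and the other mice of all groups overlapped. With all mice its log2 fold changes against CTCT were -0.22 ± 0.25 in CTPR (edgeR, adjusted P = 0.553), -0.54 ± 0.25 in PRCT (adjusted P = 0.129) and -0.47 ± 0.24 in PRPR (adjusted P = 0.212). Rfam other, with medians of 0.500% in CTCT, 0.623% in CTPR, 0.518% in PRCT and 0.563% in PRPR, had a log2 fold change of 0.34 ± 0.27 in CTPR (edgeR, adjusted P = 0.415). The sum was also taken without Rfam DNA, the most abundant class. That sum had a mean of 12.4% in CTPR and 16.5% in CTCT, a difference of -4.11 points (two-sided exact permutation P = 0.00973, adjusted P = 0.0389), and 0 of the 9 CTPR mice were above the CTCT median. Without mouse 35F2 the difference was -3.88 points (exact permutation P = 0.0174, adjusted P = 0.0694), which did not pass the adjusted test. Between littermates it was -3.77 points, with the CTPR male higher in 1 of 8 litters (exact sign-flip P = 0.0234, unadjusted), and -3.11 points without the litter of mouse 35F2 (1 of 7 litters, exact sign-flip P = 0.0469, unadjusted). Much of this sum is processed transcript, which did not pass its own adjusted test. That class alone differed by -2.40 points between littermates and by -2.15 points without the litter of mouse 35F2.

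The question of which classes rise and fall together across mice was addressed next. For this, log2 RPM values were taken as deviations from the mean of the diet group, and correlations were tested by permuting mice within groups. Rfam mRNA was used as the reference for 13 other classes, of which 5 (38.5%) were correlated with it by both Pearson's and Spearman's coefficients, 3 positively and 2 negatively. The positive partners were Rfam DNA (r = 0.932, rho = 0.856, adjusted P = 4.33e-05 by permutation), Rfam other (r = 0.898, rho = 0.887) and lincRNA (r = 0.825, rho = 0.749), both with the same adjusted P. That value comes from the smallest P that 100000 permutations can give, 1e-05. Leaving out mice 02A6 and 08G3, the 2 farthest from the median of Rfam mRNA, r was 0.873, 0.857 and 0.771. The negative partners were scaRNA (r = -0.718, rho = -0.597, adjusted permutation P = 6.5e-05 and 0.00078) and processed transcript (r = -0.535, rho = -0.470, adjusted permutation P = 0.0038 and 0.0108), with r of -0.566 and -0.375 without the same 2 mice. Without mouse 35F2 the same 5 classes passed, with r between -0.748 and 0.927. When reads outside snoRNA were taken as the library total, the 3 positive partners remained (r = 0.905, 0.871 and 0.752) and the negative ones did not pass, with r of -0.423 for scaRNA and -0.224 for processed transcript. On litter means 4 of 13 passed, and processed transcript did not (r = -0.595, rho = -0.427, adjusted permutation P = 0.00944 and 0.155, n = 21). Percentages share their total, so a rise of an abundant class lowers the others.

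**Figure D3:**
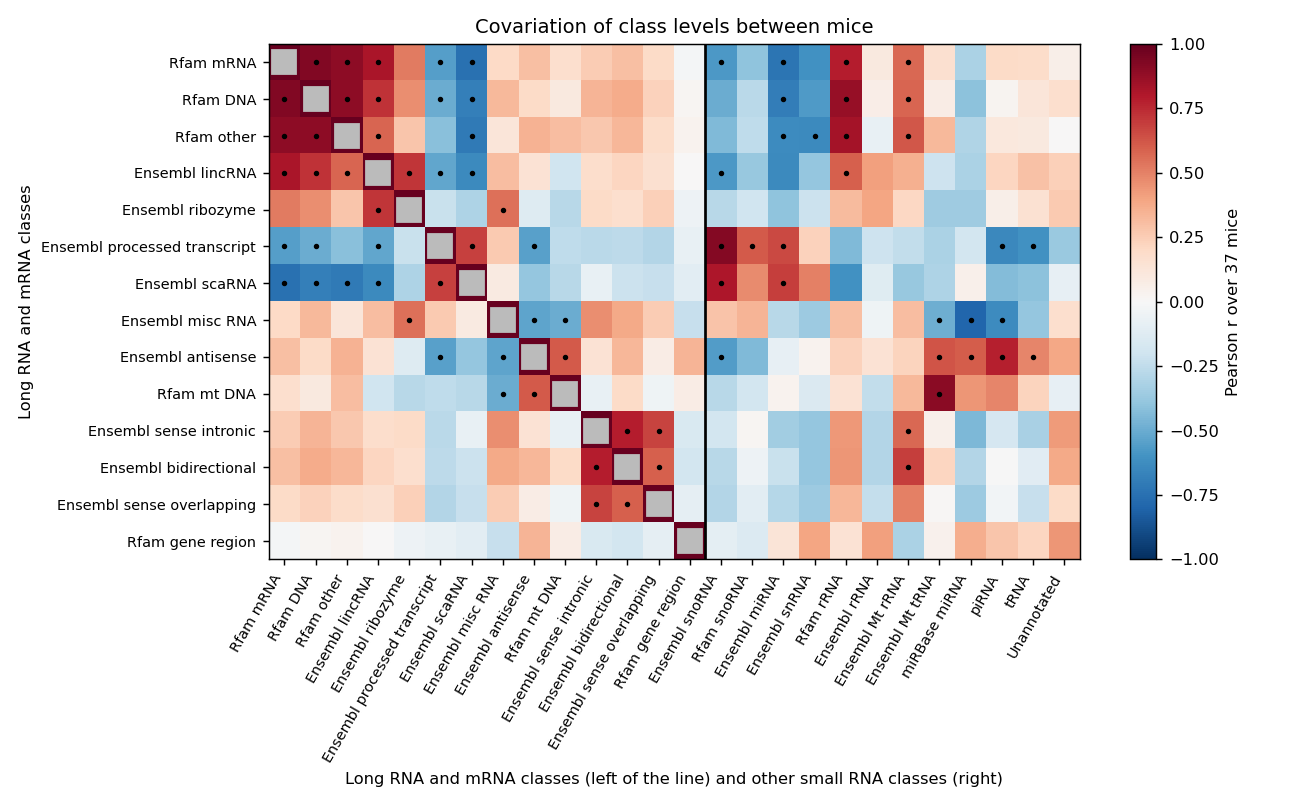
Pearson's r over 37 mice (mouse 35F2 left out) between the 14 classes with a median of at least 10 reads (rows) and the same classes (left of the line) or 12 other RNA classes (right), from log2 RPM as deviations from the diet group mean. Dots mark relations that passed by both Pearson's and Spearman's tests after adjustment. A block of Rfam mRNA, DNA, other and lincRNA is positive within itself and negative to scaRNA and processed transcript, which are positive to snoRNA.

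A wider set of relations was computed after this pattern had been seen. Of 91 pairs among the 14 classes, 18 passed with all mice (19.8%) and 23 without mouse 35F2 (25.3%), and of 168 pairs with the 12 other RNA classes 33 passed with all mice (19.6%) and 31 without it (18.5%). On the means of the 21 litters, in which littermates count once, 7 of the 91 (7.69%) and 9 of the 168 (5.36%) passed. With reads outside snoRNA as the total, 12 of the 91 passed (13.2%), 1 of them negative, and 36 of the 168 (21.4%). Processed transcript followed Ensembl snoRNA, the guides of rRNA modification (r = 0.915, rho = 0.904, n = 38, adjusted permutation P = 0.00021), and r was 0.886 without the 2 mice farthest from the snoRNA median. This r lay between 0.881 and 0.945 in 6 settings, among them litter means and reads outside snoRNA as the total. The class scaRNA also followed snoRNA (r = 0.804, rho = 0.707, adjusted permutation P = 0.00021), with r of 0.721 without the 2 farthest mice, and the range over the 6 settings was 0.778 to 0.891. Processed transcript fell where piRNA rose (r = -0.647, rho = -0.723, adjusted permutation P = 0.00115 and 0.00021) and where tRNA rose (r = -0.603, rho = -0.651, adjusted permutation P = 0.00283 and 0.00084), and r was -0.689 and -0.566 without the 2 farthest mice. On litter means only 1 negative relation passed among the 168, so these inverse relations did not both pass there. Class rows hold no read positions, so reads counted as processed transcript and reads counted as snoRNA could not be compared by place.

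Antisense RNA showed the opposite side. It rose with piRNA, the small RNAs of the germ line that guide PIWI proteins (r = 0.779, rho = 0.748, adjusted permutation P = 0.00021), with r of 0.706 without the 2 mice farthest from the piRNA median and between 0.620 and 0.861 over the 6 settings. It fell with snoRNA (r = -0.563, rho = -0.684, adjusted permutation P = 0.00633 and 0.000504), with r of -0.667 without the 2 farthest mice, but not when reads outside snoRNA were the total (r = -0.291, rho = -0.351, adjusted permutation P = 0.217 and 0.0999). The Rfam class mt_DNA followed mitochondrial tRNA of Ensembl, with r = 0.748 and rho = 0.856 over 38 mice (adjusted permutation P = 0.00021) and r = 0.906 over 37 mice without mouse 35F2 (adjusted permutation P = 0.000168), and with r of 0.663 and 0.870 without the 2 farthest mice. Rfam DNA followed Rfam rRNA (r = 0.872, rho = 0.778, adjusted permutation P = 0.00021), with r of 0.806 without the 2 farthest mice. These relations passed in all 6 settings, except that of antisense with snoRNA.

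**Figure D4:**
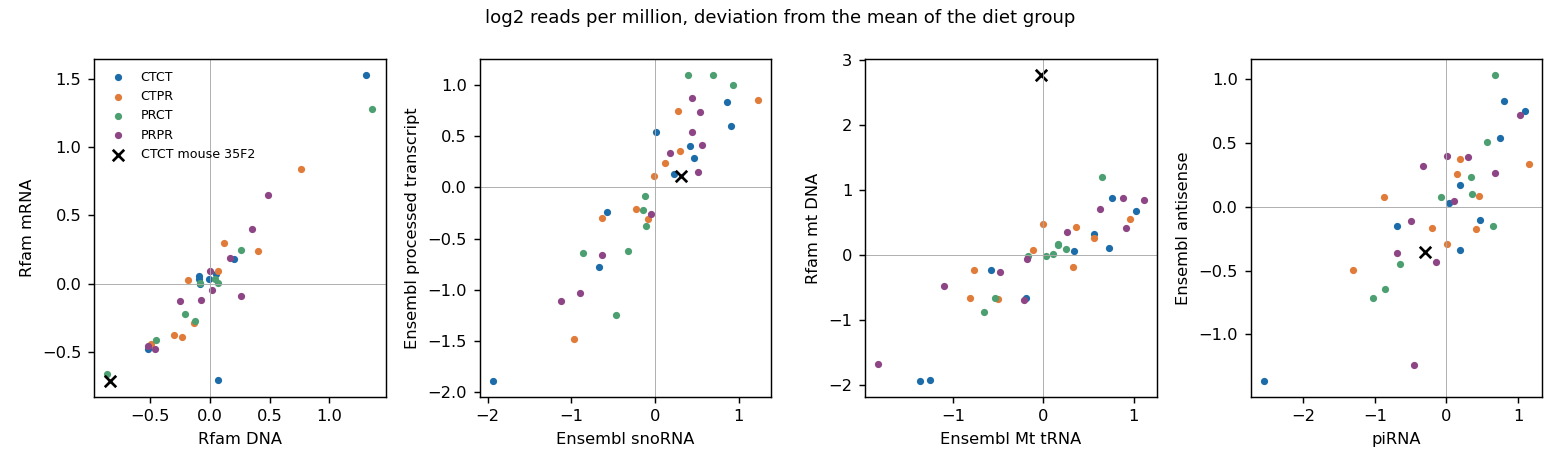
Deviations from the diet group mean in log2 RPM for 4 pairs of classes, 1 point per mouse coloured by group, with CTCT mouse 35F2 as a cross. The points of Rfam mRNA against Rfam DNA (r = 0.932), processed transcript against snoRNA (r = 0.915), mt_DNA against mitochondrial tRNA (r = 0.748, or 0.906 without mouse 35F2) and antisense against piRNA (r = 0.779) rise along the diagonal in every group.

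Several relations of the rarer classes passed only once mouse 35F2 was left out. Sense intronic RNA and bidirectional promoter lncRNA had r = -0.031 and rho = 0.317 over 38 mice and r = 0.787 and rho = 0.788 over 37 (adjusted permutation P = 0.000114 and 0.000182). Without the 2 farthest of the 37 mice, r was 0.744. Sense overlapping and sense intronic RNA went from r = -0.018 to r = 0.673 (rho = 0.643, adjusted permutation P = 0.000248 and 0.000809). The misc_RNA class was negatively related to miRBase miRNA, with r = -0.324 and rho = -0.606 over 38 mice and r = -0.795 and rho = -0.645 over 37 (adjusted permutation P = 0.000168 and 0.00112), and with r of -0.679 without the 2 farthest mice.

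Littermates were also compared for likeness. Over 17 litters with a pair of males on different diets after weaning, deviations from the group mean were correlated within pairs, as a description with no test. The correlation was positive for 11 of the 14 classes with a median of at least 10 reads (range -0.101 to 0.639, median 0.345) and for all 14 without mouse 35F2 (16 pairs, 0.136 to 0.630, median 0.405). It was 0.628 for lincRNA without that mouse and 0.0737 when litter 02A was left out instead. In that litter lincRNA reached 16.1% in CTCT mouse 02A6 and 8.11% in its CTPR littermate 02A8 against at most 4.56% elsewhere. Without both mouse 35F2 and litter 02A the correlation was positive for 12 of 14 classes (median 0.211). For sense intronic RNA it was 0.551 without mouse 35F2 and 0.487 without litter 02A, and for antisense 0.431 and 0.396. In litter 02A, Rfam DNA (27.4% and 20.4%) and Rfam mRNA (2.71% and 2.05%) were also high in both males, and processed transcript was low (2.19% and 4.37%). PRCT mouse 08G3 had a like pattern in Rfam DNA (30.3%), Rfam mRNA (2.30%) and processed transcript (4.80%), but its lincRNA was 4.19%.

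**Figure D5:**
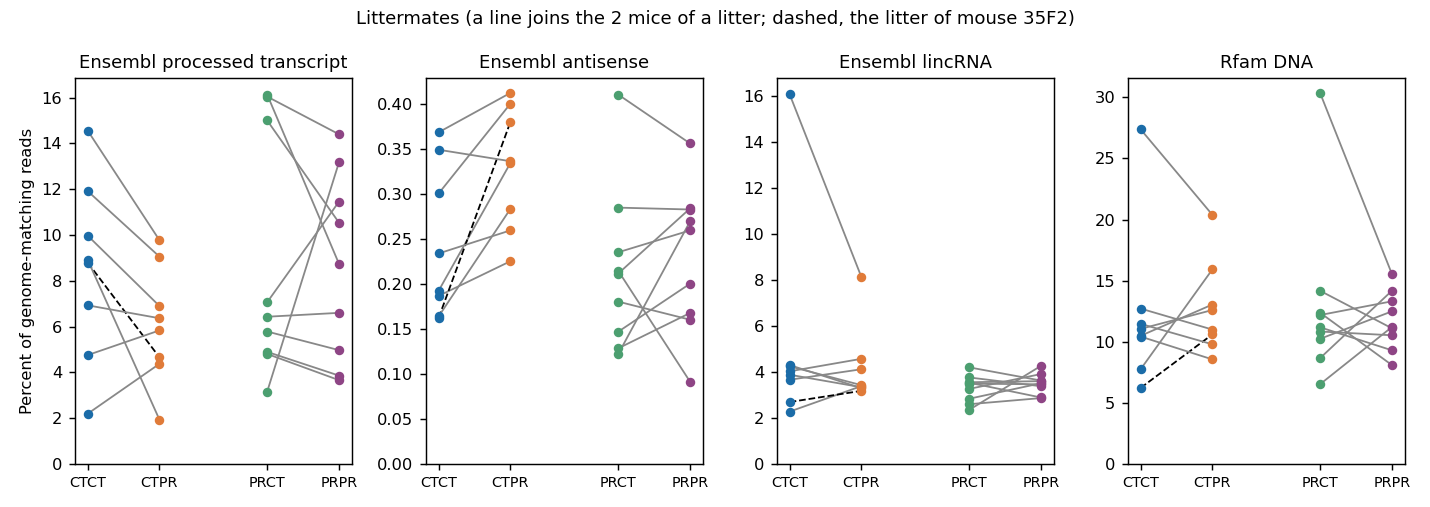
Percent of genome-matching reads of 4 classes in the 2 males of each litter, joined by a line, for 8 litters of control dams (CTCT and CTPR) and 9 of restricted dams (PRCT and PRPR). The dashed line is the litter of mouse 35F2. Lines run both ways in all panels. Antisense was higher in the CTPR male in 7 of 8 litters and in the PRPR male in 5 of 9, and processed transcript lower in 6 of 8 and in 6 of 9.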

How the data were processed

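Small RNA of sperm from 38 mice was sequenced by the authors after 15 PCR cycles, mapped to mm10 and annotated with the SPORTS pipeline, and the deposited counts are whole reads per class and mouse, without normalisation. Database versions and settings are not given in the sources used here. A class not listed for a mouse was taken as 0. No Ensembl row for protein-coding genes was among the rows used here, and the Rfam mRNA row was used where the plan named protein-coding. The rule for that row is not known, so its results are not shown to describe transcripts of protein-coding genes. Counts were divided by the reads matching the genome. edgeR 4.0.16 (R 4.3.3, glmQLFit and glmQLFTest, all 4 groups in 1 fit, no further scaling) tested 29 class rows per comparison, and DESeq2 1.42.0 was an alternative. Permutation tests and correlations, on log2((count + 0.5)/(total + 1) × 1000000), used numpy 2.4.6 and scipy 1.17.1 in Python 3.11.15, with mice permuted within groups. Correlations were adjusted over 13, 91 or 168 pairs, and littermate tests over 14 classes. A mouse is 1 sample, and P values measure the spread between mice. Litters are the first 3 characters of the mouse names. Littermates shared their dam and likeness is given above, so litter was used as a block in an alternative. The labels and a supplementary table give opposite groups for mice 47I1 and 47I2, and the labels were followed. On simulated counts of 27 classes in CTPR and CTCT, edgeR found 73.3% of the altered classes at a simulated log2 change of 1 (false calls 5.38%) and 92.5% at a change of 2 (false calls 8.26%). The means and spreads for these counts were taken without mouse 35F2, and no outlying library or likeness of littermates was simulated. The rates therefore do not cover the fit with all mice. No labels or headers name a batch. Classes with a median of at least 0.1%, those with an adjusted P under 0.05 and otherwise the 3 with the smallest P were named, and others were named after their values were seen. The classes and lists were chosen with earlier results of these data known. Leaving out mouse 35F2 or litter 02A, the class-wise permutation tests and the wider correlations were chosen after seeing the data. The authors' reads were counted at a depth at which counting error is small for classes above 0.1% and matters for those with fewer than 100 reads.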

Additional observations from a re-analysis of the deposited data

Results flagged for a closer look

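In 64 groups of 9 or 10 mice (a class, or the sum of classes, in a diet group), 22 held a mouse whose gap to its nearest neighbour was large for the range of the group (Dixon's 95% limit). For normally distributed values chance gives about 1 in 20 groups. The limit was applied to percentages without a log scale, and some classes had few reads, so that rate need not hold here. The classes covary, so these are not independent.

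CTCT mouse 35F2 was the highest of its group in bidirectional promoter lncRNA (0.689%), sense overlapping RNA (0.462%), misc_RNA (4.57%), Rfam mt_DNA (0.143%) and Rfam other_RNA (0.164%). CTCT mouse 02A6 was the highest in lincRNA (16.1%), Rfam DNA (27.4%), Rfam mRNA (2.71%), Rfam other (1.12%) and the sum of classes (49.9%). Its CTPR littermate 02A8 was the highest in lincRNA (8.11%), Rfam mRNA (2.05%) and misc_RNA (0.278%). PRCT mouse 08G3 was the highest in Rfam DNA (30.3%), Rfam mRNA (2.30%), Rfam mt_DNA (0.0721%), Rfam other (1.65%) and the sum (43.8%). Single flags fell on PRPR mouse 08G5 for sense overlapping RNA (0.00063%), CTPR mouse 09H5 for scaRNA (0.0202%), CTCT mouse 47I1 for Rfam gene_region (0.00156%) and CTPR mouse 53M4 for Rfam other_RNA (0.00013%).

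The interaction of the diets before and after weaning passed the adjusted test with all mice (edgeR, adjusted P under 0.05) for Rfam other_RNA (log2 difference -7.76), sense overlapping RNA (-7.56), bidirectional promoter lncRNA (-5.78) and misc_RNA (-2.26). These are classes in which CTCT mouse 35F2 alone was far above the other mice, so the values are not shown to be an effect of diet. Without mouse 35F2 edgeR called 0 classes for this interaction, and 1, ribozyme, had an unadjusted P under 0.05.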

How the results depend on the processing

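The counts of classes called with all mice (4, 5, 4 and 4 for CTPR, PRCT and PRPR against CTCT and the interaction) stayed within 1.5 times under TMM scaling, the filter on low counts, both other library totals, the other grouping of mice 47I1 and 47I2, and without litter 47I or 02A. Over all rows, TMM scaling called 8, 7, 5 and 5 of 29 and the filter 4, 5, 4 and 4 of 26. The other settings of this list called between 5 and 7 of 29 rows, where the main fit called 5, 6, 5 and 5. The counts of classes fell to 0 without mouse 35F2 by edgeR, by DESeq2 and by permutation tests of the mean percentage, and to 0 without mice 35F2, 31A3, 08G5 and 07C3. DESeq2 with all mice called 0, 1, 0 and 0 by either size factor, and the permutation tests with all mice called 0 in CTPR, PRCT and PRPR. The fit with litter as a replicate block called 0 in CTPR with mouse 35F2 and 0 without it. A fit of PRCT and CTCT alone called 3 classes, and these were all of its calls over 28 rows. In PRCT, PRPR and the interaction, DESeq2 gave no P value for misc_RNA, bidirectional promoter lncRNA, sense overlapping RNA and Rfam other_RNA. Whether it gave one for them in CTPR is not shown by the values kept, so its 0 calls decide nothing about these 4 classes. In the permutation tests with all mice, mouse 35F2 alone set the mean difference of these 4 classes. A small P was therefore not possible for them, and the absence of calls there decides nothing. Leaving out each mouse in turn, the counts ranged from 0 (without 35F2) to 4 in CTPR, 0 to 5 in PRCT, 0 to 4 in PRPR and 0 to 5 for the interaction, and were at least 4, 5, 4 and 4 without any other mouse. PRPR against PRCT gave 0 throughout.

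The difference in summed percentage between CTPR and CTCT depended on the total and on the classes summed. With reads outside snoRNA as the total it was -9.40 points (30.2% against 39.6%, exact permutation P = 0.0412, adjusted P = 0.165). It was 0.152 points for Rfam mRNA alone and -4.11 without Rfam DNA. Without Rfam DNA it was -3.77 with litter as a block and -3.93 without litter 02A. With mouse 35F2 also left out, the block without Rfam DNA gave -3.11. Beside the calls named here, the block changed none. That of PRCT against CTCT reversed to 1.04 without litter 02A, with a range of -3.42 to 1.04 on leaving out each mouse, and that of PRPR against PRCT ranged from -2.56 to 0.431. The littermate difference of PRPR and PRCT ranged from -2.40 to 0.838 points on leaving out each litter. With reads outside snoRNA as the total, 3 classes instead of 5 were correlated with Rfam mRNA.

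Values of classes called with all mice changed sign only with mouse 35F2 left out. Rfam other_RNA in PRCT went to 0.37 without mouse 35F2 by edgeR and by DESeq2 and to 0.30 without the 4 mice (-8.12 to 0.37 on leaving out each mouse), and its interaction to 0.43, 0.40 and 0.40 (-8.67 to 0.43). Without the 4 mice misc_RNA in PRPR was 0.0502 and the interaction of the bidirectional class 0.0400, and sense overlapping RNA in CTPR was 0.00945 with mouse 35F2 left out and litters as a block. Among values not called in either fit, 29 of 519 changed sign.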
